A study of Mus musculus with 4 samples.

Results

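Cd44, the cell-surface receptor for hyaluronan, was followed together with the genes that make hyaluronan (Has1, Has2, Has3), break it down (Hyal1, Hyal2) or bind it in another way (Hmmr). The probe sets were chosen by symbol alone: each one that the array's annotation pairs with 1 of these 7 genes was taken, which gave 14 of the 45101 probe sets on the array and 6 of the 18193 genes with a probe set of their own. Cd44 had 4, Hmmr had 5, Has2 had 2, and Has1, Has3 and Hyal2 had 1 each. Hyal1 had none of its own, because both probe sets that name it are also annotated to Naa80, whose gene overlaps it.

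The samples were cells of 4T1, a carcinoma line from mouse mammary gland, split into CD44v8-10-positive and CD44v8-10-negative cells, with 2 arrays in each group. CD44v8-10 is a splice form of CD44 that carries variant exons. All cells were grown in RPMI medium with bovine serum under normoxia and picked by hand under a dissecting microscope, and total RNA was hybridised to one-colour Affymetrix arrays. The labels do not say how the CD44v8-10 status of a cell was read or whether the arrays of a group came from separate cultures. Each p-value therefore rests on the spread between these arrays alone, and that spread may be technical. For each probe set limma estimated the spread partly from the other probe sets.

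Hyaluronan is a long, unbranched sugar polymer of the matrix around cells. Synthases in the plasma membrane extrude it, hyaluronidases cut it, and receptors such as CD44 bind it and link it to the cytoskeleton. CD44 is made in many splice forms from 1 gene, and breast carcinoma cells have long been studied for how much of it they carry and in which form. An array probe set reads the part of the mRNA that its probes match. Since the exons matched by these probe sets were not analysed here, none of the values below is a measure of the v8-10 form.

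The start regions of Cd44 and Hmmr are shown because their probe sets gave the most complete view of a member gene. Both are RefSeq windows from 250 bases before to 50 bases after a transcript start, build GRCm38.p6, minus strand, written along the gene. RefSeq windows were found for 5 of the 7 genes, and Has2 and Has3 had none. Capitals mark matches to GGGCGG, the GC box, in Cd44, and to CCAAT, the CCAAT box, and TTTGAA, the CHR element of mitotic genes, in Hmmr.
Cd44, chr2:102901616-102901915: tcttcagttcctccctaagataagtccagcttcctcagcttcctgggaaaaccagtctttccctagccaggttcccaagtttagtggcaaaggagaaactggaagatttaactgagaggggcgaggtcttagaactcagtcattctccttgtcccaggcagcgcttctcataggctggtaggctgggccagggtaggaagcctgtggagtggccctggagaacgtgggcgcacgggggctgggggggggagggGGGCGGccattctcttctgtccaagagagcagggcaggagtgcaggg
Hmmr, chr11:40733388-40733687: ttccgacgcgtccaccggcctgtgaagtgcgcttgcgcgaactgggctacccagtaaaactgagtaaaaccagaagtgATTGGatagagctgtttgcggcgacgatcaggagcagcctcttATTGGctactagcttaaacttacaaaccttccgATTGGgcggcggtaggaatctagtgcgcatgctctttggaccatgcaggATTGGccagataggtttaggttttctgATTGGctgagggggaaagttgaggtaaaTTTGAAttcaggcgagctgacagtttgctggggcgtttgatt

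Letters were searched on both strands, along with TGANTCA for AP-1. The Cd44 window held 1 GC box, which 35.7% of all 32851 RefSeq windows hold, and no match to the other motifs. The Hmmr window held 5 CCAAT boxes and 1 CHR element, and 1 of the CCAAT boxes overlapped a GC box that is not capitalised. At least 4 CCAAT boxes were found in 1.06% of all windows. A CHR element was found in 17.9% of all windows, and a CHR element together with a CCAAT box in 6.95%. In 31 windows of 29 mitotic spindle genes, 77.4% held a CHR element and 67.7% held both. A match describes the letters in the window and is not a bound site.

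No probe set of these genes was called different between CD44v8-10-positive and CD44v8-10-negative cells. Of the 14 probe sets, 11 passed the filter on dim signals and were tested, and 0 had an adjusted p under 0.05 (limma, two-sided, Benjamini-Hochberg over 27022 probe sets), where 0.0333% of all probe sets tested did. None had an unadjusted p under 0.05 either, against 4.61% of all probe sets tested. The lowest adjusted p among them was 0.959 by limma. Their log2 fold changes, positive minus negative on the scale of log2(signal + 16), lay between -0.39 and 0.40, 7 of them positive and 4 negative. Their median was 0.11, where the median over all probe sets tested was 0.00010. With no scaling between arrays 6 of the 7 positive values were negative, among them both brightest Cd44 probe sets (-0.06 and -0.05). In all 11 the difference between the group means was smaller than the larger of the gaps between replicates of a group. A difference that misses the threshold does not show that the groups were equal, and the 95% intervals say what size remained possible: across the 11 probe sets they reached from 2.06-fold lower to 1.86-fold higher.

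**Figure D1:**
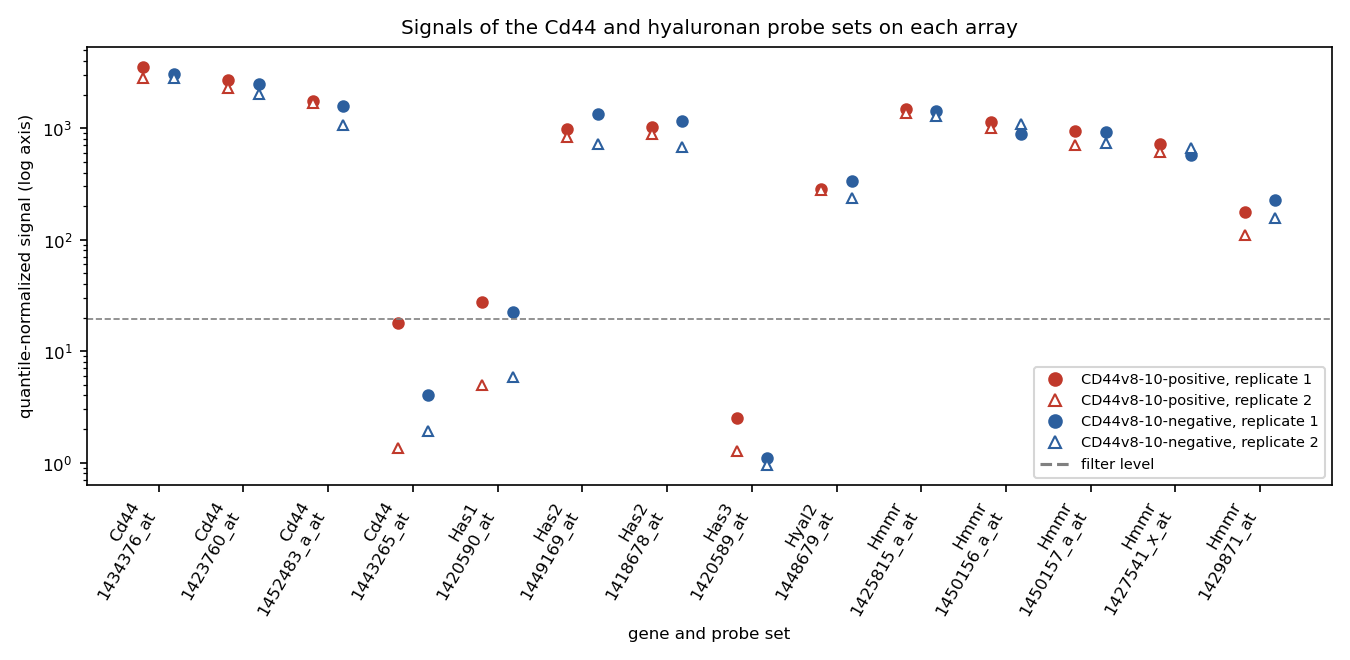
Quantile-normalized signal on each array (log axis) for the 14 probe sets, with positive arrays in red, negative arrays in blue, circles for replicate 1 and open triangles for replicate 2. The dashed line is the filter level of 19.4. The 11 tested probe sets lie above the line on every array, with positive and negative arrays close together, and the 3 untested ones lie near or under it.

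Cd44 was read by 3 bright probe sets and 1 dim one. The brightest, 1434376_at, had normalized signals of 3550.3 and 2840.5 in positive cells, against 3049.8 and 2827 in negative cells. Both negative arrays and positive replicate 2 lay close together, with positive replicate 1 above them. Its log2 fold change was 0.11 ± 0.17 (SE), with a 95% interval of -0.27 to 0.50. In linear terms this runs from 0.829 to 1.41 times the level in negative cells.

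The second Cd44 probe set, 1423760_at, had signals of 2704 and 2283 in positive cells and 2499 and 2041 in negative cells. The groups interleaved, with replicate 1 the higher array in each. Its log2 fold change was 0.14 ± 0.18 (SE), and its interval reached from -0.27 to 0.55.

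The third, 1452483_a_at, was the Cd44 probe set with the largest difference and the one member tested whose groups did not overlap after normalization. Its signals were 1741 and 1696 in positive cells and 1581 and 1059 in negative cells. Groups did not overlap in 33.2% of all probe sets tested, 16.5% with the positive arrays higher and 16.7% with them lower, so 1 of 11 members is not above the background. The log2 fold change was 0.40 ± 0.22 (SE, interval -0.08 to 0.89), with an unadjusted p of 0.0942 and an adjusted p of 0.959 by limma. The positive replicates were 0.04 apart on the log2 scale and the negative replicates 0.57 apart. Negative replicate 2 set the size of the difference: without it the log2 fold change was 0.12, and without negative replicate 1 it was 0.69. In the deposited signals, before normalization, this probe set had 1696 and 1453 in positive cells and 1258 and 1465 in negative cells, and the groups overlapped.

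The fourth Cd44 probe set, 1443265_at, was under the filter level of 19.4 on every array. It had signals of 17.8 and 1.35 in positive cells and 4.03 and 1.90 in negative cells, so 1 positive array stood apart from the other 3. It was not tested and no fold is given.

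Probe sets that read different parts of Cd44 would shift against each other if the mix of its mRNA forms differed there, and a factor that scales a whole array nearly cancels in the ratio of 2 of its probe sets. All 3 pairs of bright Cd44 probe sets were compared. The log2 ratio of 1434376_at over 1423760_at was 0.39 and 0.31 on the positive arrays and 0.29 and 0.47 on the negative arrays, a mean difference of -0.02. The ratio of 1434376_at over 1452483_a_at was 1.02 and 0.74 on the positive arrays and 0.94 and 1.40 on the negative arrays, a mean difference of -0.29, and the groups overlapped.

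The ratio of 1423760_at over 1452483_a_at was 0.63 and 0.42 on the positive arrays, against 0.65 and 0.94 on the negative arrays. Here both positive arrays lay under both negative arrays, by a mean of -0.27, although positive replicate 1 and negative replicate 1 were nearly the same. An exact two-sided permutation test gave p = 0.333 for this pair, which is the smallest p that 2 arrays against 2 can give, and 0.667 and 1 for the others. Adjusted over the 3 pairs, each p was 1. The size of the differences depended on single arrays. Without negative replicate 2 the mean difference was 0.07 for 1434376_at over 1423760_at, -0.06 for 1434376_at over 1452483_a_at and -0.13 for 1423760_at over 1452483_a_at, and without negative replicate 1 these were -0.11, -0.52 and -0.41. Without positive replicate 2 they were 0.0071, -0.16 and -0.17.

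**Figure D2:**
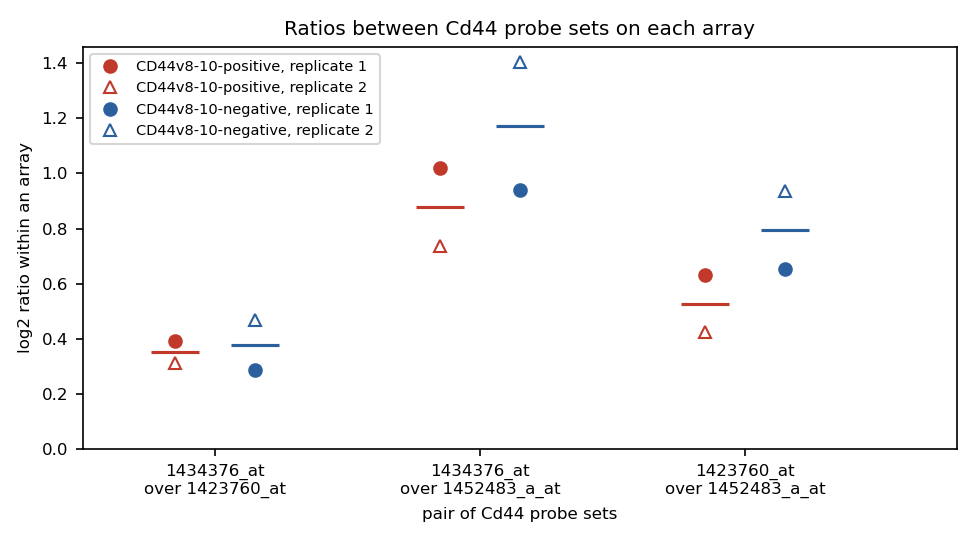
Log2 ratio of 1 Cd44 probe set over another within each array, for the 3 pairs, with positive arrays in red left of negative arrays in blue and short lines at the group means. The positive and negative arrays overlap in the first and second pair, and in the third pair the nearest arrays are at 0.63 and 0.65.

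Among the synthases, Has2 was well above the filter level and Has1 and Has3 were not. Has2 is the main synthase of many mesenchymal and carcinoma cells. Its probe sets, which share 1 target mRNA, gave differences of opposite sign. For 1449169_at the signals were 990.3 and 827 in positive cells and 1351 and 715 in negative cells, a log2 fold change of -0.12 ± 0.28 (SE, interval -0.75 to 0.52). For 1418678_at they were 1036 and 884 in positive cells and 1166 and 675 in negative cells, a log2 fold change of 0.11 ± 0.26 (SE, interval -0.48 to 0.69).

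In both Has2 probe sets the negative arrays were the highest and the lowest of the 4, with the positive arrays between them. This spread between the negative replicates, 0.90 and 0.77 on the log2 scale, was wider than in any other of the 11 member probe sets tested, and it was not present before normalization. In the deposited signals the negative arrays had 1076 and 999 for 1449169_at and 927 and 949.5 for 1418678_at. The positive arrays there had 948 and 724 for 1449169_at, so that both lay under both negative arrays, and 999 and 767 for 1418678_at, where the groups overlapped. The trimmed mean of all deposited signals was 237 and 220.1 on the positive arrays and 196 and 345 on the negative arrays. Negative replicate 2 was therefore scaled down most. The share of all probe sets with both positive arrays under both negative arrays before normalization was not counted.

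Has1 had 27.4 and 5.0 in positive cells and 22.3 and 5.88 in negative cells. Replicate 1 of each group was just over the filter level of 19.4 and replicate 2 of each group under it, and the probe set was not tested. Has3 had 2.50 and 1.27 in positive cells and 1.10 and 0.95 in negative cells. All 4 arrays were far under the filter level, so the order of these signals carries no measured difference. For Has1 and Has3 the arrays set only an upper range on the signal.

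Hyal2, a hyaluronidase anchored at the cell surface that cuts long chains into shorter ones, had nearly equal group means. Its signals were 284 and 276 in positive cells and 339 and 238 in negative cells. The positive arrays lay between the negative ones. The log2 fold change was -0.02 ± 0.25 (SE, interval -0.57 to 0.53), and it was 0.22 without negative replicate 1. In the deposited signals both positive arrays, at 259 and 245, lay under both negative arrays, at 260.0 and 348. Here too negative replicate 2 was the array with the highest trimmed mean, and the share of all probe sets with this order was not counted.

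Hyal1, the lysosomal hyaluronidase, was not read apart from Naa80, an acetyltransferase that acts on actin, because the annotation names both genes for each probe set. The 2 shared probe sets, made from different mRNA records, are given as such. One, 1419213_at, had 106 and 98.6 in positive cells and 85.4 and 101 in negative cells (log2 fold change 0.12 ± 0.26, SE). The other, 1449954_at, had 49.9 and 34.5 in positive cells and 72.1 and 19.0 in negative cells (log2 fold change 0.05 ± 0.44, SE). The groups overlapped in both, and neither was called by limma, with adjusted p values of 0.980 and 0.992.

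Hmmr, also called RHAMM, binds hyaluronan and, inside the cell, microtubules of the mitotic spindle. Of its 5 probe sets, 3 lay above 0 and 2 below, and the groups overlapped in every one. The brightest, 1425815_a_at, had 1502 and 1358 in positive cells and 1428 and 1279 in negative cells, a log2 fold change of 0.08 ± 0.19 (SE, interval -0.34 to 0.49). The 4 arrays lay within a narrow range, with replicate 1 the higher array in each group.

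A pair of Hmmr probe sets made from the same mRNA record did not order the arrays alike. For 1450156_a_at the signals were 1134 and 997 in positive cells and 887 and 1083 in negative cells, with a log2 fold change of 0.12 ± 0.20 (SE). For 1450157_a_at they were 944 and 709.8 in positive cells and 917 and 743 in negative cells, with a log2 fold change of -0.01 ± 0.23 (SE). The less specific probe set 1427541_x_at had 725 and 607 in positive cells and 572 and 658 in negative cells, with a log2 fold change of 0.11 ± 0.22 (SE).

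The dimmest Hmmr probe set, 1429871_at, differed from the other 4. Its signals were 178 and 109.7 in positive cells and 226 and 158 in negative cells, with positive replicate 2 the lowest array and negative replicate 1 the highest, and the groups overlapped. Its log2 fold change of -0.39 ± 0.29 (SE, interval -1.04 to 0.26) was the lowest among the members, with an adjusted p of 0.959 by limma. It was negative under all 16 alternatives in which it was tested, between -0.70 and -0.07. In the deposited signals the positive arrays, at 160.5 and 97.9, both lay under the negative arrays, at 170.5 and 232. These signals are not scaled between arrays, and negative replicate 2 had the highest trimmed mean, 345. The share of all probe sets with this order before normalization was not counted.

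**Figure D3:**
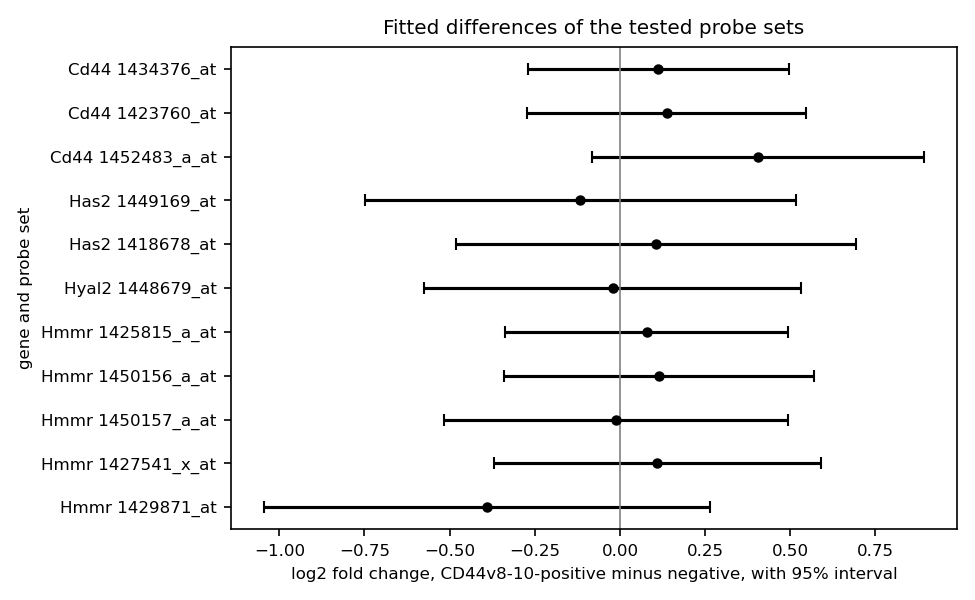
Log2 fold change of each tested probe set, positive minus negative on the log2(signal + 16) scale, with its 95% interval from limma. Every interval includes 0, and the widest, for Hmmr 1429871_at, runs from -1.04 to 0.26.

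Genes around the members were described from lists, taking the brightest tested probe set of each gene. By that measure 0.0502% of the 11956 genes tested had an adjusted p under 0.05 in the fit of all probe sets, and 3.71% had an unadjusted p under 0.05. The median log2 fold change over all genes was 0.03. No gene of the 5 lists that follow was called by limma.

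The sugar precursors of hyaluronan are made by a short set of enzymes. Of 10 such genes on the array 9 were tested, and 2 had positive and 7 negative log2 fold changes. The median was -0.10, and none had an unadjusted p under 0.05. The brightest was Ugdh, which makes UDP-glucuronic acid, with a mean signal of 2540 in positive cells and 2834 in negative cells (log2 fold change -0.15 ± 0.17, SE). Uap1, which makes UDP-N-acetylglucosamine, had -0.03 ± 0.19 (SE). Gnpnat1, an enzyme of the same branch, had -0.21 ± 0.19 (SE). The other probe sets of Uap1 and Gnpnat1 lay between -0.45 and 0.12.

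Other genes of hyaluronan breakdown and lysosomal sugar removal had 5 tested of 11 on the array, 2 positive and 3 negative, and a median of -0.28. The 3 negative ones did not overlap between the groups, where 32.3% of all genes did not. The brightest were Oga, at 0.04 ± 0.20 (SE), Gusb, the lysosomal beta-glucuronidase, at 0.02 ± 0.18, and Glb1, the lysosomal beta-galactosidase, at -0.28 ± 0.23. Oga had 6 tested probe sets, which disagreed: 1422902_s_at gave 0.85 ± 0.21 (SE, unadjusted p 0.00214, adjusted p 0.892 by limma), with both positive arrays higher, and the remaining 4 gave -0.17 to 0.24. Oga and Glb1 act on sugar linkages that hyaluronan does not have. Cemip2, a cell-surface protein reported to cut hyaluronan, and Hexa, a subunit of lysosomal beta-hexosaminidase, are added here after their values were seen.

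Hexa had signals of 111 and 89.7 in positive cells and 144 and 203 in negative cells, so both positive arrays were lower. Its log2 fold change was -0.69 ± 0.27 (SE), with an unadjusted p of 0.0279 and an adjusted p of 0.959 by limma. Cemip2 had -0.45 ± 0.25 (SE) at its brightest probe set. Its other 2 gave -0.20 and -0.72, with unadjusted p values of 0.467 and 0.0439 and adjusted p values of 0.966 and 0.959 by limma. Over all 13 tested probe sets of this list, 1 was higher and 2 were lower at an unadjusted p under 0.05 by limma. Among all 27022 probe sets tested, 550 were higher and 696 lower at that level.

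Other receptors and binding proteins of hyaluronan had 11 genes tested of 27 on the array, 8 positive and 3 negative, and a median of 0.13. The brightest were C1qbp, a mainly mitochondrial protein that binds hyaluronan in vitro, at -0.03 ± 0.15 (SE), the chaperone partner Cdc37, at 0.13 ± 0.17, and the innate immune receptor Tlr4, at -0.19 ± 0.24, whose other 2 probe sets gave 0.04 and 0.02. The values of the remaining 8 genes lay between -0.03 and 0.59.

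Ligands, partners and sheddases of CD44 had 25 genes tested of 31 on the array, 15 positive and 10 negative, and a median of 0.08. Moesin, Msn, and radixin, Rdx, tie the tail of CD44 to actin. Msn had signals of 7547 and 9618.5 in positive cells and 6778 and 7310.5 in negative cells, and both positive arrays were higher, with a log2 fold change of 0.27 ± 0.15 (SE, adjusted p 0.959 by limma). Its second probe set gave 0.37. Rdx had -0.12 ± 0.16 (SE), with -0.30 and 0.08 at its other probe sets. The scaffold protein Iqgap1 had -0.17 ± 0.15 (SE) at its brightest probe set, with its other 4 between -0.34 and 0.51. That brightest Iqgap1 probe set was lower on both positive arrays, at 3369 and 3332 against 3930 and 3598.5 in negative cells. Among the 25 genes, the positive arrays were both higher than the negative ones for 6 and both lower for 4. Over all genes tested, the groups did not overlap in 32.3%, either direction counted.

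By its brightest probe set 1 gene of this list had an unadjusted p under 0.05, and it is named after its value was seen. Erbb3, a receptor of the EGF receptor family, had signals of 186 and 235 in positive cells and 82.5 and 134 in negative cells. Its log2 fold change was 0.89 ± 0.28 (SE), with an unadjusted p of 0.0106 and an adjusted p of 0.959 by limma. Over all 62 tested probe sets of these genes 5 had an unadjusted p under 0.05 by limma, all higher in positive cells. Among all 27022 probe sets tested, 550 were higher and 696 lower at that level, 4.61% in either direction. Beside Erbb3 and the second Msn probe set, the 5 of this list were 1 of Mmp9, a matrix metalloproteinase, and 2 of Gab1, a signalling adaptor. Mmp9 1416298_at gave 0.66 ± 0.23 (SE) and its brighter probe set 0.46. Gab1 1448814_at gave 1.25 ± 0.42 (SE) and 1417694_at 1.02 ± 0.45, while the brightest Gab1 probe set gave 0.33. None passed after adjustment (adjusted p 0.959 by limma for each).

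Hmmr was set beside 33 other mitotic spindle genes, all of which passed the filter. Of these 20 had positive and 13 negative log2 fold changes, from -0.38 to 0.46, and the median was 0.08. None had an unadjusted p under 0.05 by limma at its brightest probe set, and of all 65 tested probe sets 1 did, of Cdca8, at 0.49. The brightest probe set of Hmmr, at 0.08, was close to that median. The brightest genes of the list were Anln, a scaffold of the cleavage furrow, at -0.02 ± 0.14 (SE), the topoisomerase Top2a, at 0.05 ± 0.13, and the mitotic kinase Cdk1, at 0.12 ± 0.15.

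**Figure D4:**
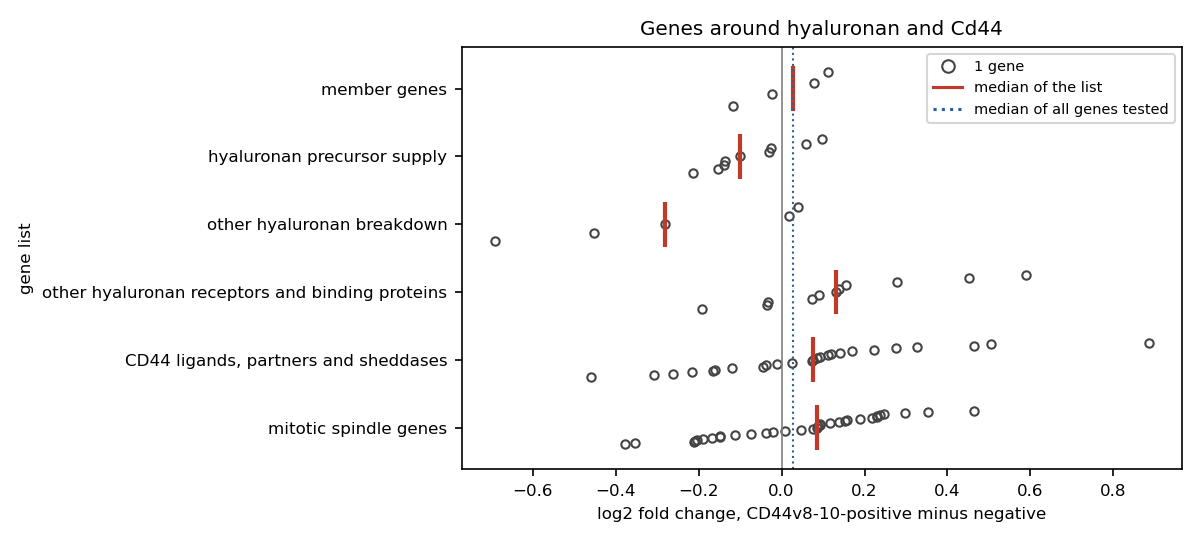
Log2 fold change, positive minus negative, of the brightest tested probe set of each gene, for the 4 member genes with a tested probe set and 5 lists of related genes. Circles are genes, red lines list medians and the dotted line the median of 0.03 over all genes tested; the lowest gene is Hexa, at -0.69, and the highest Erbb3, at 0.89.

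The genes whose pattern over the 4 arrays was most like the brightest Cd44 probe set were Arap1, Morc3 and Dnajc25, each with a Pearson correlation of at least 0.999. For the brightest Hmmr probe set they were Il13ra1, Ergic2 and Rrbp1, again at 0.999 or more. With 4 arrays high correlations are common: 478 of 16601 probe sets compared with Cd44 and 1032 of 19722 compared with Hmmr were over 0.9. The number at 0.999 or more was not counted.

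Markers of the labelled cell type and of other cells give the background to these values. All 10 epithelial markers passed the filter, although Krt5, at 22.7 and 57.4 in positive cells and 6.05 and 18.4 in negative cells, was under its level on both negative arrays. Their summed signals were 37235 and 40051 in positive cells and 28083 and 33751 in negative cells, and 2 of them, Cldn7 and Krt14, were called higher. Of 12 leukocyte markers on the array 6 were tested, and the summed signals of all 12 were 571 and 716 in positive cells and 516 and 477 in negative cells. The leukocyte marker Ptprc was under the filter level on every array, as were Cd3e and Itgam. Of 10 fibroblast markers 3 were tested, with sums over all 10 of 207 and 162 in positive cells and 233 and 221.0 in negative cells, and Col1a1, Col3a1, Pdgfrb and Thy1 were under the filter level on every array. Of 7 endothelial markers 0 passed the filter, with sums of 122 and 99.4 in positive cells and 54.5 and 53.8 in negative cells, and Pecam1, Tek and Vwf were under its level on every array. The epithelial and leukocyte sums were higher and the fibroblast sums lower in both positive arrays. Of the tested fibroblast markers Pdgfra was lower, with means of 40.3 in positive and 92.2 in negative cells. Pdpn was higher, at 29.6 against 19.4, and Col1a2 nearly equal, at 45.2 against 43.4. The endothelial sums were also higher, but they add only genes that failed the filter, so their order carries no measured difference. The part of these sums in the values above was not tested. In bulk RNA a change in the share of cells that express a gene and a change in its mRNA per cell cannot be told apart.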

How the data were processed

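Values were the deposited intensities, 1 per probe set and array, from 0.1 to 22695.6; GCOS, Affymetrix's array software, appears in the submitters' processing notes, and no role, summary method or scaling is given in the sources used here. The column medians were 33.3, 39.2, 28.6 and 52.3, so the arrays were quantile normalized and transformed as log2(value + 16). After 64 control probe sets were removed, those with a mean under the 40th percentile (log2 5.15, a signal of 19.4) were left out. Gene symbols came from the 2016 annotation of the array: 34945 had 1 symbol, 932 several and 9160 none; 34741 were matched by gene number to RefSeq, with 0 symbols changed. Each probe set was tested on its own with limma 3.58.1 (R 4.3.3; moderated test with intensity trend, two-sided, 10.1 degrees of freedom, Benjamini-Hochberg); fold changes on this scale understate differences of dim probe sets. The number of arrays limits the precision. Over the probe sets tested, the normalized log2 signals of the positive arrays correlated at 0.967 with each other and those of the negative arrays at 0.977. Positive replicate 1 correlated at 0.981 and 0.977 with the negative arrays, and positive replicate 2 at 0.961 and 0.962.

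Members and lists were chosen with earlier results of these data known. Named genes were all members, the 3 brightest and any called gene of each list, and, for Cd44 and Hmmr, the 3 most similar by correlation among probe sets at least as variable; others are marked in the text. The procedure was tested on simulated data with 200 of 27022 probe sets changed. It recovered 42.6% of log2 changes of 1 and 92.5% of log2 changes of 2. Of the probe sets called there, 8.83% were false, which is above the threshold of 0.05. The simulated noise was normal, independent between arrays and drawn with the spread that limma fitted. Shifts shared by a whole array were not simulated, so recovery on the real arrays may be lower. Ratios between Cd44 probe sets were compared by exact permutation. The labels give same-numbered arrays a common number and do not say whether they share a culture or batch. Over all probe sets tested, their deviations from the group means correlated at 0.09. With the replicate number as a block, 21 probe sets were called by limma instead of 9, none of them a member. The unadjusted p of Cd44 1452483_a_at was then 0.0508 by limma, against 0.0942 in the main fit. Alternatives were other scalings, pseudocounts, filters, probe set choices, priors, the replicate block and leaving out each array.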

Additional observations from a re-analysis of the deposited data

How the results depend on the processing

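No member probe set was called by limma under the main settings or in any of the 17 alternatives. The count of all probe sets called was 9 under the main settings, 17 with arrays centred on their medians, 4 with no scaling, 2 with no intensity trend, 1 to 15 with 1 array left out, and 0 by limma with no filter, where 2109 had an unadjusted p under 0.05; with the replicate number as a block it was 21. It was 1 without positive replicate 2 and 15 without positive replicate 1. Of 179 member values under the alternatives, 159 kept their sign and 20 did not. With arrays centred on their medians Has2 1418678_at was -0.016 and Hmmr 1425815_a_at -0.038. With no scaling Cd44 1423760_at was -0.048, Cd44 1434376_at -0.057, Has2 1418678_at -0.098, Hmmr 1425815_a_at -0.12, Hmmr 1427541_x_at -0.080 and Hmmr 1450156_a_at -0.070. With 1 array left out, log2 fold changes crossed 0 for 9 of the 11: Cd44 1423760_at (-0.011 to 0.28), Cd44 1434376_at (-0.048 to 0.26), Has2 1418678_at (-0.28 to 0.49), Has2 1449169_at (-0.58 to 0.33), Hyal2 1448679_at (-0.27 to 0.22), and Hmmr 1425815_a_at (-0.0022 to 0.16), 1427541_x_at (-0.014 to 0.23), 1450156_a_at (-0.027 to 0.26) and 1450157_a_at (-0.21 to 0.19). Cd44 1452483_a_at (0.12 to 0.69) and Hmmr 1429871_at (-0.70 to -0.07) kept their sign. With an array left out, the lone array of its group is assumed to vary like the others. Other scalings nearly cancel in the ratios between Cd44 probe sets and do not test them. Leaving out each array, added after seeing the data, gave mean differences of -0.11 to 0.07 for 1434376_at over 1423760_at, where 0.0071 and 0.072 were positive, -0.52 to -0.059 for 1434376_at over 1452483_a_at and -0.41 to -0.13 for 1423760_at over 1452483_a_at. With 2 arrays a group, the 95% intervals of the members still allow differences of up to 2.06-fold lower and 1.86-fold higher.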
